A study of Arabidopsis thaliana with 24 samples.

Results

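ARF7 and ARF19 are transcription factors that bind auxin response elements and activate genes when auxin arrives. In unstimulated tissue, Aux/IAA proteins hold such factors inactive. Auxin binding to TIR1/AFB receptors leads to the degradation of the Aux/IAA proteins and frees the factors to act, and ARF7 and ARF19 are best known in Arabidopsis for overlapping roles in lateral root formation. Seedlings that lack ARF7 still respond to IAA, the main auxin of plants (indole-3-acetic acid), and the question here was how much of that remaining response is lost when ARF19 is mutated as well. The measure is the IAA response of the nph4-1 arf19-1 double mutant minus the IAA response of the nph4-1 single mutant, called the response difference below. It rests on 12 of the 24 arrays of the series, chosen by genotype alone.

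The 4 groups were nph4-1 arf19-1 seedlings with 5 µM IAA, nph4-1 arf19-1 seedlings with the ethanol solvent (control), nph4-1 seedlings with 5 µM IAA and nph4-1 seedlings with the solvent, with 3 arrays each. The nph4-1 allele is a mutation of ARF7 and arf19-1 one of ARF19, so all 12 arrays carry the ARF7 mutation. Plants were grown for 7 days in shaken liquid medium with 1.5% sucrose under 16 h of light and 8 h of dark, and treated for 2 h at 24 °C. The other 12 arrays are arf19-1 and wild-type Col seedlings with IAA and with solvent, and serve here for the spread estimate and for comparison. Each mutant is 1 line, and no label states that replicate arrays came from separately grown cultures. The p-values therefore measure the spread between arrays, which may be technical. Whole seedlings were used, in which fewer cells of a type and less RNA per cell cannot be told apart.

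Values are log2 signal per probe set, with a floor at 5.64 (50 in linear units). The 12 arrays had medians between 6.65 and 6.758 and 35.6% to 36.6% of values at the floor, and the number of arrays limits the precision. One array, nph4-1 IAA replicate 1, lay further from its group mean than the other 11, by 0.189 on average against 0.0655 to 0.118. Results are therefore given with and without it. Root markers (3 of 3 tested, EXPA7 and EXPA18 among them) and shoot and photosynthesis markers (8 of 8 tested) were above the floor on all arrays, and none of the 11 was called for the response difference. EXPA7, a root hair expansin, was the only root marker called between the genotypes with IAA (-0.82 in nph4-1 arf19-1 minus nph4-1, adjusted p = 0.018). Without IAA its difference was -0.70, which was not called (limma adjusted p = 0.058). EXPA18 differed by -0.42 with IAA and -0.52 without it, neither called. The part of these genes in the results was not tested. Summed linear root marker signal ran from 7930 to 8320 in nph4-1 arf19-1 with IAA, 7100 to 7990 in nph4-1 arf19-1 controls, 8040 to 8810 in nph4-1 with IAA and 7560 to 8070 in nph4-1 controls. For shoot markers the ranges were 39200 to 40800, 40700 to 42500, 38300 to 41600 and 37200 to 41800 in the same order of groups. In the root sums EXPA7 and EXPA18 weigh little, with means of 6.56 to 7.81 on the log2 scale in the 4 groups. Those sums therefore rest mostly on the third root marker. ARF7 and ARF19 are paired with no probe set in the annotation used, so their own levels were not analysed here.

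Among 15757 probe sets tested with limma, 47 had a response difference with a Benjamini-Hochberg adjusted p under 0.05, which is 0.298% of those tested. The response was lower in the double mutant for 32 of them (0.203%) and higher for 15 (0.0952%). Without nph4-1 IAA replicate 1 the counts were 33 lower and 16 higher, and 42 probe sets were called both ways. An unadjusted p under 0.05 was reached by 629 probe sets, and the median response difference over all probe sets was -0.008. The standard error of a response difference was 0.17 on the log2 scale at the median, and the called differences ran from 0.42 to 2.54 in absolute size. The calls sit on one side of the responses they modify. All 32 lower calls were genes raised by IAA in nph4-1, and 13 of the 15 higher calls were genes lowered by IAA there, against 1.72% raised and 0.8% lowered among all probe sets. These shares use the same nph4-1 arrays as the response difference and are given as a description.

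**Figure D1:**
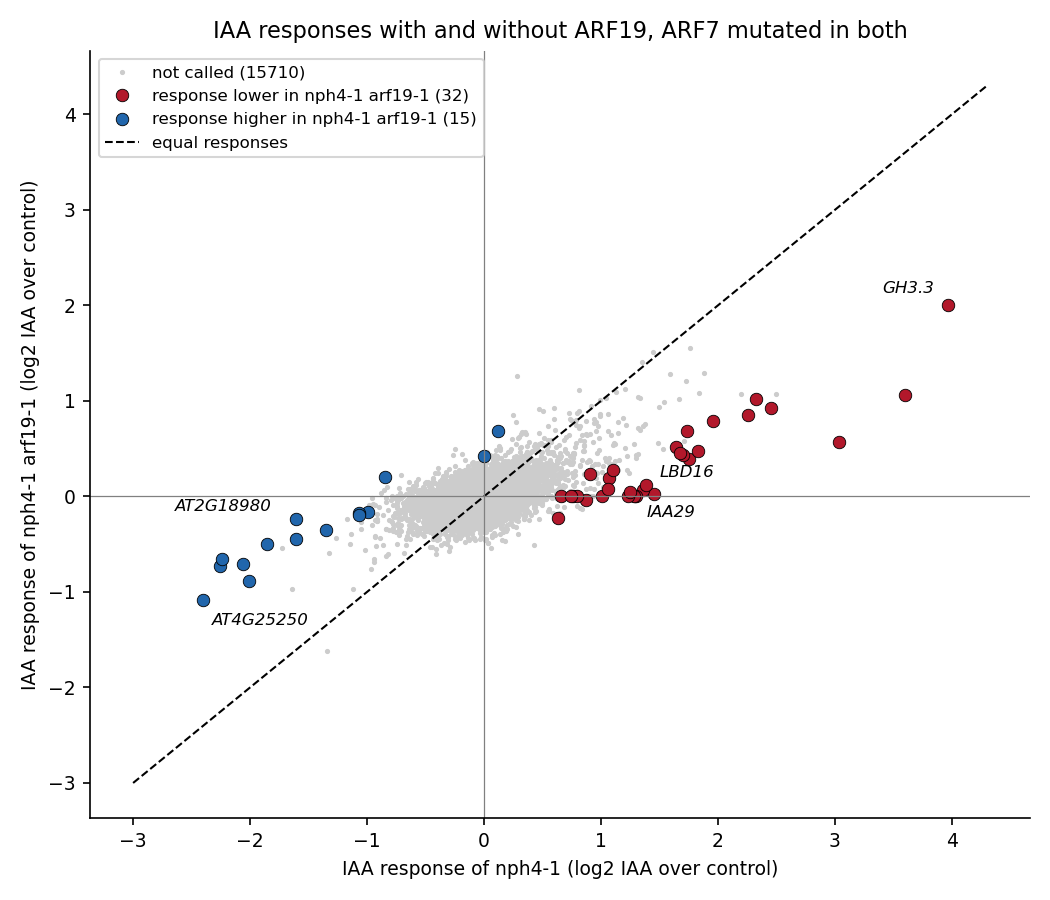
IAA response (log2 signal with IAA minus control, mean of 3 arrays each) of nph4-1 arf19-1 on the y axis against that of nph4-1 on the x axis, 1 point per probe set tested. The 32 lower calls lie right of 0 and below the dashed line of equal responses, and most of the 15 higher calls lie left of 0 and above it.

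The responses of wild-type Col come from arrays that do not enter the response difference. All 32 lower calls rose with IAA in Col, where 6.33% of all probe sets rose. All 32 also rose in nph4-1, and of the 271 probe sets that rose there, 225 rose in Col. Of the 126 that fell in nph4-1, 95 fell in Col. A like response in Col was thus common among such probe sets, and the counts here are given as a description. Of the 15 higher calls, 11 fell in Col, 1 rose and 3 were not called, while 6.52% of all probe sets fell. In arf19-1, which keeps ARF7 and where 10.1% of all probe sets responded, 30 of the 32 lower calls rose and 12 of the 15 higher calls fell, against 4.89% and 5.22% of all probe sets.

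The levels with and without IAA are the terms of the response difference that chose the calls, so the counts that follow describe where the difference lay and test nothing. The lower calls had a median IAA response of 0.16 in nph4-1 arf19-1, against 1.33 in nph4-1. For 25 of the 32 the response of the double mutant was not called, and the other 7 rose there, where 0.336% of all probe sets rose. With IAA, the 3 double-mutant arrays lay below the 3 nph4-1 arrays for all 32, against 9.98% of all probe sets, and the level with IAA was called lower for 31 of them. Over all probe sets that level was called different for 2.86%, lower for 2.18%. Without IAA, none of the 32 was called lower and 2 were called higher, beside 1.57% lower and 0.882% higher of all probe sets. The control arrays of the double mutant lay above those of nph4-1 for 4 of the 32, against 9.68% of all. The median level difference between nph4-1 arf19-1 and nph4-1 was -1.16 with IAA and 0 without it. In 14 of the 32 the control arrays of both genotypes were all at the floor, so a level difference without IAA could not be seen there. For 9 of the 32 all 6 double-mutant arrays were at the floor.

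GH3.3 had the lowest response difference of the called probe sets with a single gene. GH3.3, an enzyme that joins IAA to amino acids and so inactivates it, read 11.88, 11.97 and 12.08 in nph4-1 arf19-1 with IAA and 9.94, 10.03 and 9.94 in its controls. It read 12.10, 12.38 and 12.63 in nph4-1 with IAA and 8.42, 8.33 and 8.46 in nph4-1 controls. GH3.3 thus rose in both genotypes, by 4.01-fold in the double mutant and 15.6-fold in nph4-1, and the groups of each genotype did not overlap. Its response difference was -1.96 ± 0.25 (SE, limma adjusted p = 0.00018), and 50.5% of the log2 response of nph4-1 was left. Starting from its controls, the double mutant would have read 13.94 with a response equal to that of nph4-1, above the highest signal on any array (13.5). An equal response therefore lay outside the range of signals seen on these arrays, for GH3.3 alone among the 32. GH3.3 is the only lower call whose level with IAA was not called lower. Without IAA its signal was 1.57 higher in the double mutant on the log2 scale (adjusted p = 1.5e-05), while with IAA it was 0.40 lower, which was not called (adjusted p = 0.35). The probe set 267083_at was the other lower call with a called control difference. Its level difference was 0.51 without IAA (limma adjusted p = 0.02) and -0.55 with it (limma adjusted p = 0.0085).

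Aux/IAA repressors are themselves auxin-induced and close the negative feedback loop. IAA29 was at the floor on all 3 nph4-1 arf19-1 arrays with IAA and on all 6 control arrays, and read 6.91, 6.60 and 7.27 in nph4-1 with IAA. The gene rose in nph4-1 by at least 2.43-fold over the floor and no response was seen above the floor in the double mutant (response difference -1.28 ± 0.20, adjusted p = 0.0015). IAA30 read 5.64, 5.64 and 5.88 in nph4-1 arf19-1 with IAA and 6.57, 6.25 and 6.94 in nph4-1 with IAA, with all controls of both at the floor. Its 3 arrays with IAA were also lower in the double mutant, but its response difference of -0.86 ± 0.21 was not called (adjusted p = 0.15). Of 5 Aux/IAA genes tested, 1 was called lower and none higher, with a list median of -0.11, against 0.203% called lower and a median of -0.008 over all probe sets.

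Of the 4 GH3 genes tested, 1 (GH3.3) was called lower, with a list median of -0.96. Over all probe sets 0.203% were called lower and the median was -0.008. WES1 (GH3.5), which also conjugates auxin, had 7.74, 8.40 and 8.53 in nph4-1 arf19-1 with IAA and 8.66, 9.94 and 10.48 in nph4-1 with IAA. Its response difference was -1.43, with a 95% interval of -2.51 to -0.35, and was not called (adjusted p = 0.87). GH3.1 and GH3.17 had response differences of -0.50 and -0.02, neither called.

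Lateral root genes formed the other named group. LBD16, a LOB-domain factor that acts in the first divisions of lateral root founder cells, read 6.70, 6.29 and 6.71 in nph4-1 arf19-1 with IAA and 6.25, 6.59 and 6.50 in its controls. In nph4-1 it read 7.59, 7.55 and 7.99 with IAA and 6.25, 6.31 and 6.41 in controls. The double-mutant arrays with and without IAA overlapped, while the nph4-1 arrays with IAA lay above all others, and the response difference was -1.27 ± 0.19 (adjusted p = 0.00088). PUCHI, an AP2/ERF factor that shapes the lateral root primordium, was at the floor on all 6 nph4-1 arf19-1 arrays. It read 6.57, 6.28 and 6.38 in nph4-1 with IAA, against 5.64, 5.64 and 5.67 in nph4-1 controls, a response difference of -0.76 ± 0.11 (adjusted p = 0.00069). LBD29, a close relative of LBD16 with a role in the same process, was at the floor on all 6 double-mutant arrays and read 6.36, 5.81 and 6.41 in nph4-1 with IAA. Its response difference of -0.55 ± 0.16 was not called (adjusted p = 0.38). All 3 of these genes rose in nph4-1, none was called for a response in nph4-1 arf19-1, and 2 were called lower for the response difference. Over all probe sets 1.72% rose in nph4-1, 0.336% rose in nph4-1 arf19-1 and 0.203% were called lower for the response difference. The list was drawn with earlier results of these data known and changed after the values were available. Its counts are therefore a description. For the 2 LBD factors tested, LBD16 and LBD29, the count was 1 lower.

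**Figure D2:**
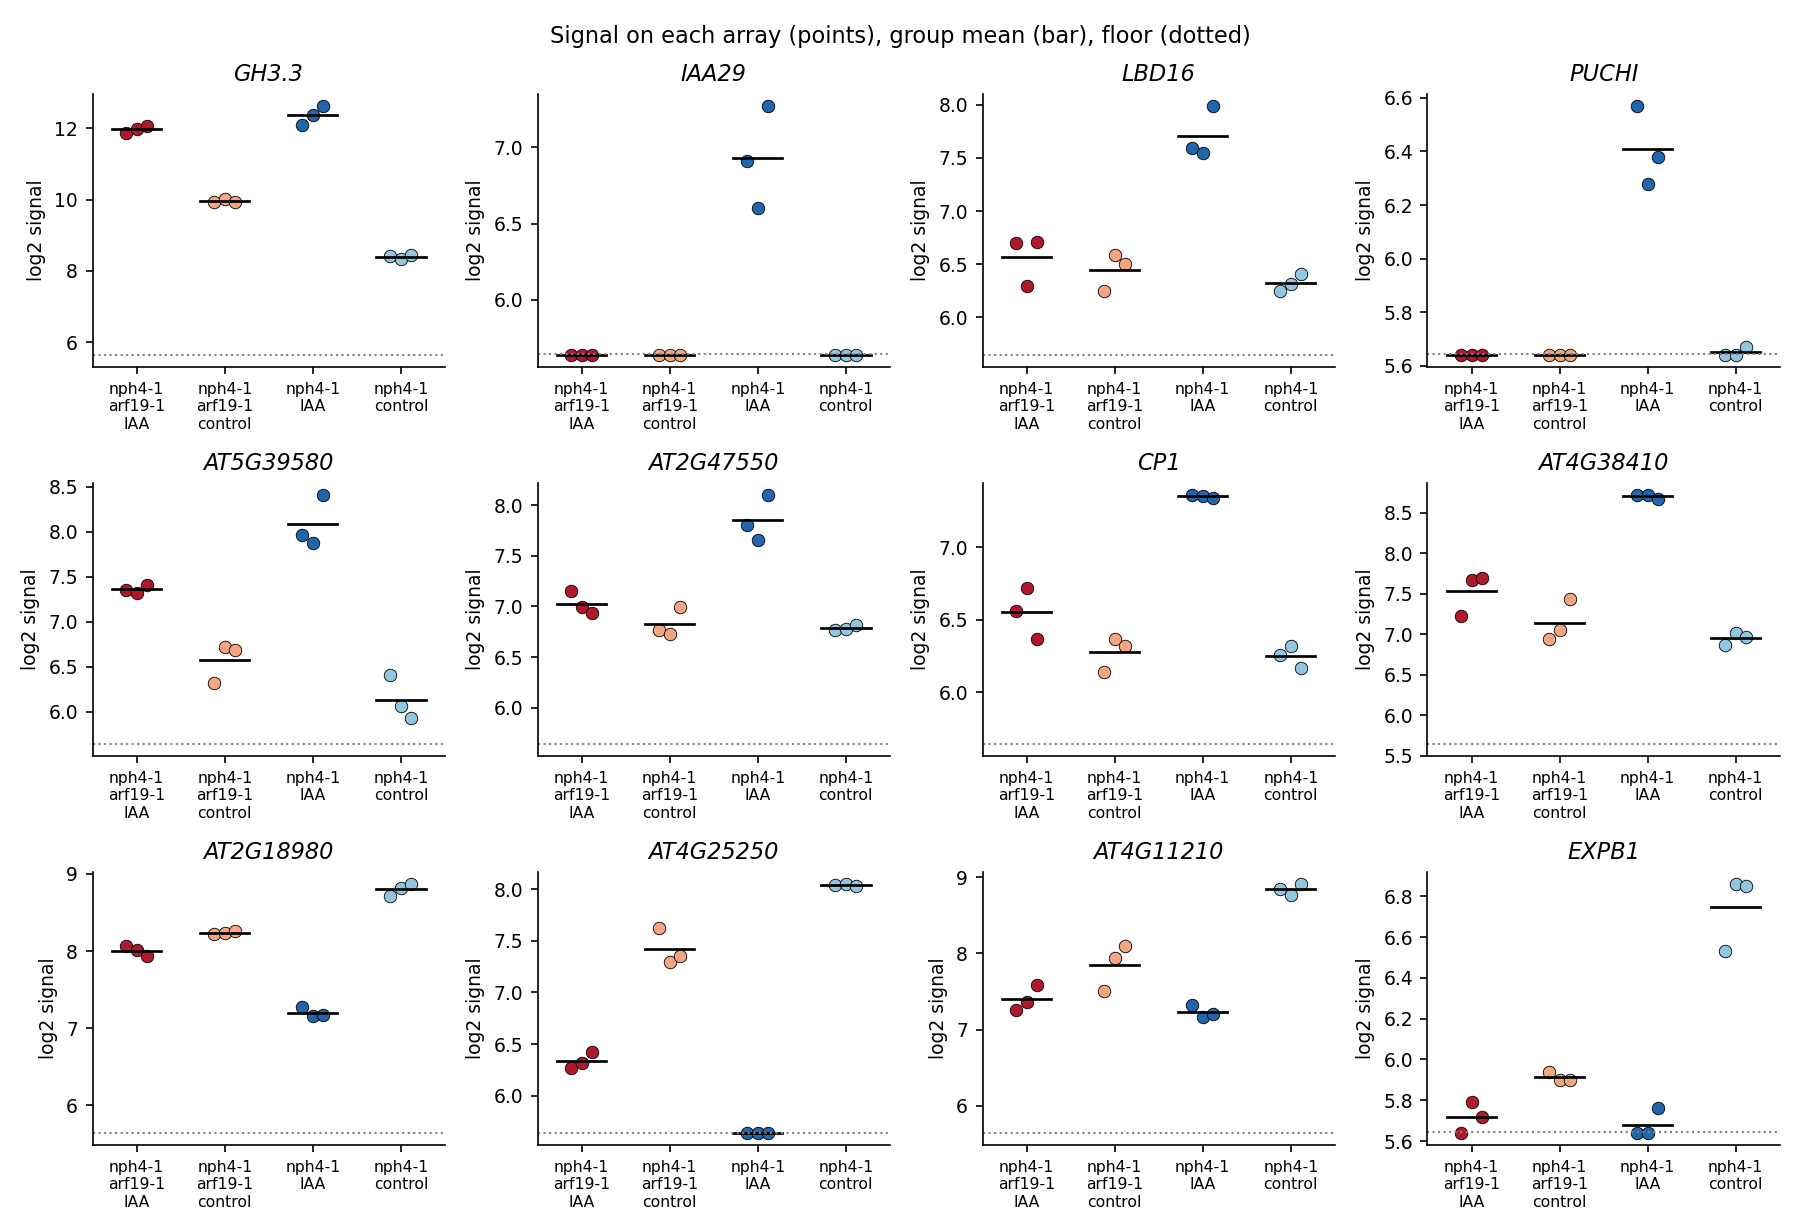
Log2 signal of 12 called genes on each of the 12 arrays. Points are single arrays, bars group means of 3 arrays and the dotted line the floor at 5.64, with each y axis scaled to its gene. In the upper 8 panels nph4-1 with IAA stands above the other groups, with GH3.3 also raised in the double mutant, and in the lower row nph4-1 controls stand above the other groups.

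Wall and protease genes were also among the lower calls. AT5G39580, a class III peroxidase, read 7.35, 7.32 and 7.41 in nph4-1 arf19-1 with IAA and 6.32, 6.72 and 6.69 in its controls. It read 7.97, 7.88 and 8.41 in nph4-1 with IAA and 6.41, 6.06 and 5.93 in nph4-1 controls. AT5G39580 rose in both genotypes, by 1.72-fold in the double mutant and 3.88-fold in nph4-1, with a response difference of -1.17 ± 0.21 (adjusted p = 0.0094). The call was lost when only the 12 arrays were fitted (adjusted p = 0.104). AT2G47550, a pectin methylesterase, which removes methyl groups from wall pectin, had 7.15, 6.99 and 6.94 in nph4-1 arf19-1 with IAA, against 7.80, 7.66 and 8.10 in nph4-1 with IAA. Its controls read 6.77, 6.73 and 6.99 in the double mutant and 6.77, 6.78 and 6.82 in nph4-1. The response difference was -0.87 ± 0.17 (adjusted p = 0.025). CP1, a papain-type cysteine protease, read 6.56, 6.72 and 6.37 in nph4-1 arf19-1 with IAA and 7.36, 7.35 and 7.34 in nph4-1 with IAA, with a response difference of -0.83 ± 0.16 (adjusted p = 0.021). In each of these 3 genes the nph4-1 arrays with IAA lay above the double-mutant arrays with IAA.

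The calls of AT2G47550 and CP1 were near the threshold, with values that moved little. Over all alternatives the response difference of AT2G47550 stayed between -0.96 and -0.75 and that of CP1 between -0.91 and -0.74. The call of AT2G47550 was lost when only the 12 arrays were fitted (adjusted p = 0.0825), and on leaving out nph4-1 control replicate 1, 2 or 3, nph4-1 IAA replicate 3, nph4-1 arf19-1 control replicate 3, or nph4-1 arf19-1 IAA replicate 2 or 3, with adjusted p up to 0.113. That of CP1 was lost on leaving out nph4-1 control replicate 1 or 3, nph4-1 IAA replicate 3, nph4-1 arf19-1 control replicate 2 or 3, or nph4-1 arf19-1 IAA replicate 1 or 3, with adjusted p up to 0.0948. Both kept the call without nph4-1 IAA replicate 1, with adjusted p = 0.0347 for AT2G47550 and 0.0458 for CP1.

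A further 6 lower calls have 1 gene each, known here by locus only. AT4G38410 read 7.23, 7.67 and 7.70 in nph4-1 arf19-1 with IAA and 8.72, 8.72 and 8.67 in nph4-1 with IAA, against controls of 6.94, 7.05 and 7.44 in the double mutant and 6.87, 7.02 and 6.97 in nph4-1. The double-mutant arrays with and without IAA overlapped, and the response difference was -1.36 ± 0.23 (adjusted p = 0.0036). AT3G51410 was at the floor on all 6 double-mutant arrays and all 3 nph4-1 controls and read 7.01, 7.09 and 6.72 in nph4-1 with IAA. It therefore rose by at least 2.45-fold in nph4-1, with a response difference of -1.29 ± 0.13 (adjusted p = 3.5e-06). AT3G19200 had 6.14, 6.22 and 6.27 in nph4-1 arf19-1 with IAA and 7.43, 7.72 and 7.58 in nph4-1 with IAA, a response difference of -1.27 ± 0.21 (adjusted p = 0.0036). AT4G17350 and AT1G33260 had response differences of -0.91 ± 0.17 and -0.86 ± 0.15, with adjusted p = 0.01 and 0.0091, and their responses in the double mutant were -0.04 and -0.22, neither called. The call of AT4G17350 was lost when only the 12 arrays were fitted (adjusted p = 0.152). AT3G55720, named because it was the only other such gene and chosen after its values were seen, was at the floor on 9 of the 12 arrays, the exceptions being 5.98, 6.51 and 6.41 in nph4-1 with IAA. Its response difference was -0.66 ± 0.12 (adjusted p = 0.013), and the call was lost without nph4-1 IAA replicate 3 (adjusted p = 0.0529) and when only the 12 arrays were fitted (adjusted p = 0.202). With no filter on probe sets the AT3G55720 call was lost as well.

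The other 19 lower calls are probe sets that the annotation does not pair with a single gene. They include the lowest response differences of all. The probe set 262099_s_at read 6.38, 6.74 and 6.99 in nph4-1 arf19-1 with IAA and 8.45, 9.49 and 9.80 in nph4-1 with IAA, with all controls at the floor, and its response difference was -2.54 ± 0.36. The probe set 248164_at read 6.24, 6.01 and 6.40 in nph4-1 arf19-1 with IAA and 8.87, 8.45 and 8.70 in nph4-1 with IAA, again with controls at the floor, and its response difference was -2.46 ± 0.23. In both, the arrays of the double mutant with IAA lay above the floor and far below those of nph4-1.

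For the 15 higher calls, too, the level differences are terms of the value that chose them and are given as a description. Their median IAA response was -0.36 in nph4-1 arf19-1, against -1.61 in nph4-1. In the double mutant 6 fell, 2 rose and 7 were not called, beside 0.0825% of all probe sets that fell there. Without IAA the level was called lower in the double mutant for 12 of the 15, against 1.57% of all probe sets, and for 13 the control arrays did not overlap, against 10.2% of all. With IAA it was called higher for 8 of the 15, against 0.679% of all, and never lower, and for 10 the arrays did not overlap, against 5.86% of all. The median level difference was -0.64 without IAA and 0.47 with it. For 5 of the 15, EXPB1 (4.85) and AT4G25250 (5.02) among them, the level that equal responses would have given lay below the floor. Their response in the double mutant could therefore not have been as large as in nph4-1 on this scale.

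AT2G18980, a class III peroxidase, read 8.06, 8.01 and 7.94 in nph4-1 arf19-1 with IAA and 8.22, 8.24 and 8.26 in its controls. In nph4-1 it read 7.27, 7.16 and 7.17 with IAA and 8.72, 8.82 and 8.87 in controls. It fell with IAA by 3.04-fold in nph4-1 and its response of -0.24 in the double mutant was not called, which gave a response difference of 1.37 ± 0.14 (adjusted p = 1e-05). The double mutant thus stood between both nph4-1 groups, with or without IAA. With ARF7 present the gene went the other way, with IAA responses of 0.48 in arf19-1 and 0.31 in Col, both called.

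AT4G25250, a pectin methylesterase inhibitor family member, fell in both genotypes. It read 6.27, 6.32 and 6.42 in nph4-1 arf19-1 with IAA and 7.62, 7.29 and 7.35 in its controls. It was at the floor on all 3 nph4-1 arrays with IAA, against 8.04, 8.05 and 8.03 in nph4-1 controls. The fall was 2.12-fold in the double mutant and at least 5.27-fold in nph4-1, and the response difference was 1.32 ± 0.17 (adjusted p = 0.00025). All groups were apart from each other.

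AT4G11210, a dirigent-like protein gene, read 7.26, 7.36 and 7.59 in nph4-1 arf19-1 with IAA and 7.51, 7.94 and 8.10 in its controls. In nph4-1 it read 7.32, 7.17 and 7.21 with IAA and 8.85, 8.76 and 8.91 in controls. Its 2 groups with IAA overlapped, and the response difference of 1.16 ± 0.21 (adjusted p = 0.011) lay in the level without IAA, which was 0.99 lower in the double mutant (adjusted p = 0.00045). EXPB1, a beta-expansin that loosens walls, read 5.64, 5.79 and 5.72 in nph4-1 arf19-1 with IAA and 5.94, 5.90 and 5.90 in its controls, against 5.64, 5.64 and 5.76 in nph4-1 with IAA and 6.53, 6.86 and 6.85 in nph4-1 controls. Here too the difference of 0.87 ± 0.17 (adjusted p = 0.021) lay in the controls, and both groups with IAA were near the floor. Equal responses would have put EXPB1 at 4.85 in the double mutant with IAA, below the floor.

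The EXPB1 call was lost without nph4-1 IAA replicate 1 (adjusted p = 0.0505), the only one of the 18 named calls lost on leaving out that array. It was also lost without nph4-1 IAA replicate 2, nph4-1 control replicate 2 or 3, nph4-1 arf19-1 control replicate 2 or 3, or nph4-1 arf19-1 IAA replicate 2 or 3, with adjusted p up to 0.0812. With no filter on probe sets the EXPB1 call was lost as well. AT1G76240, known here by locus only, had 7.81, 7.67 and 7.82 in nph4-1 arf19-1 with IAA and 7.98, 7.90 and 7.92 in its controls, against 7.49, 7.81 and 7.54 in nph4-1 with IAA and 8.47, 8.59 and 8.75 in nph4-1 controls. Its response difference was 0.83 ± 0.15 (adjusted p = 0.01). The other 10 higher calls have no single gene in the annotation, and the highest of them, 254606_at and 253957_at, had response differences of 1.59 ± 0.13 and 1.53 ± 0.23.

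**Figure D3:**
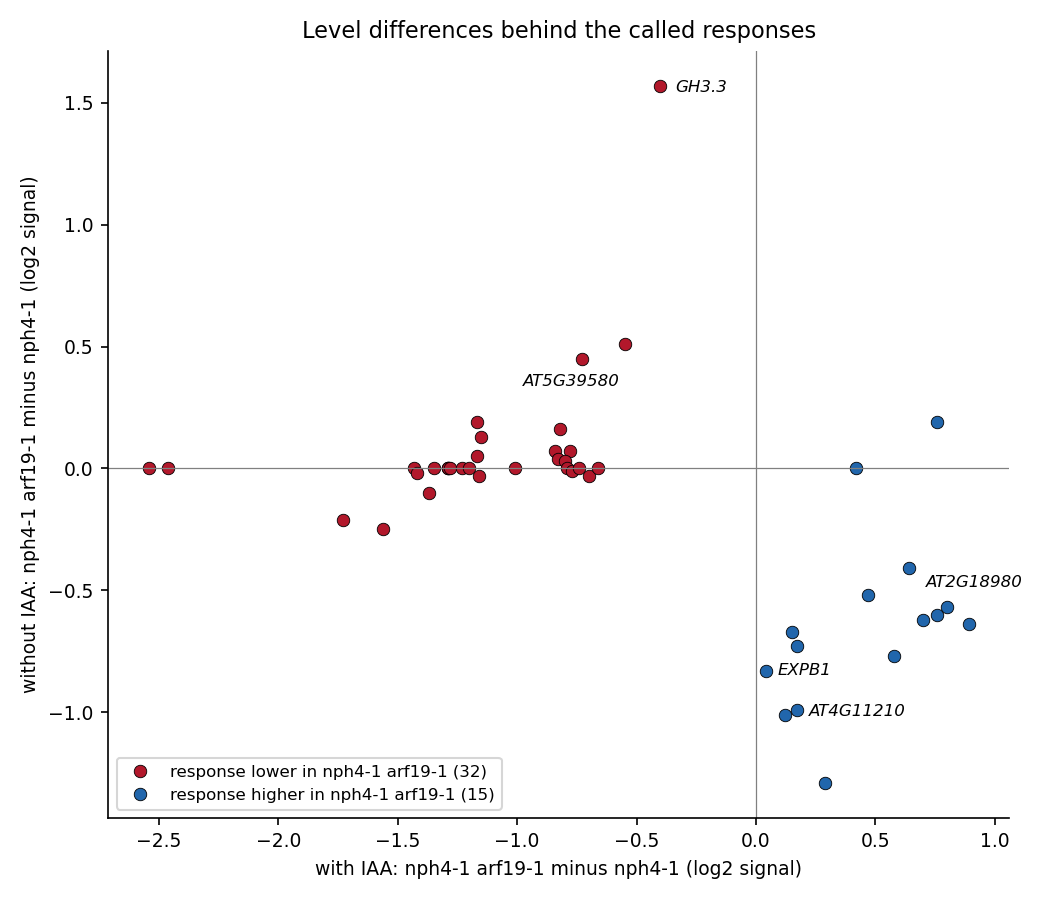
Difference in log2 signal between nph4-1 arf19-1 and nph4-1 with IAA (x axis) and without IAA (y axis) for the 47 called probe sets. Lower calls lie left of 0 and mostly near 0 on the y axis, with GH3.3 at 1.57 furthest from it. Of the 15 higher calls, 13 lie below 0 on the y axis.

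The same 47 calls can be set against all genes that responded in Col. Of the 998 probe sets that rose in Col, 32 were called lower for the response difference (3.21%) and 1 higher, and of the 1028 that fell in Col, none was called lower and 11 higher (1.07%). Restricted to a change of at least 2-fold in Col, 30 of 293 raised probe sets were called lower (10.2%) and none higher. Of those 293, 230 had a negative response difference (78.5%, against 52.3% of all probe sets). For the 112 lowered at least 2-fold, 9 were called higher (8.04%) and none lower, and 21 had a negative response difference (18.8%). Over all probe sets 0.203% were called lower and 0.0952% higher. Of the 998 raised in Col, 225 also rose in nph4-1, and all 32 lower calls lie among these. The shares are therefore given as a description.

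Averaged over the 293 raised probe sets, signal was 6.91 ± 0.048 in nph4-1 arf19-1 with IAA and 6.66 ± 0.020 in its controls, and 7.31 ± 0.082 in nph4-1 with IAA and 6.67 ± 0.022 in its controls (SD, n = 3 arrays each). The arrays with IAA ran from 6.86 to 6.95 in the double mutant and from 7.26 to 7.40 in nph4-1 and did not overlap, whereas the controls did. The mean response was 0.249 in nph4-1 arf19-1, 0.639 in nph4-1, 1.46 in arf19-1 and 1.643 in Col. The double mutant kept 38.9% of the mean log2 response of nph4-1, and 15.1% of that of Col. The Col arrays chose these probe sets, which tends to make the Col mean too high and the 15.1% too low. With no 2-fold minimum, means over the 998 probe sets raised in Col were 0.732 in arf19-1 and 0.883 in Col. Over the 770 raised in arf19-1 they were 0.948 and 0.92. The mean response difference of -0.39 was -0.412 without nph4-1 IAA replicate 1. It was made of a level difference of -0.398 with IAA and -0.009 without it. Probe sets whose controls were at the floor, such as IAA29, enter these averages with responses that are bounds. A control difference could not be seen for them.

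Over the 112 lowered probe sets, signal was 7.81 ± 0.052 in nph4-1 arf19-1 with IAA and 8.04 ± 0.018 in its controls, and 7.83 ± 0.078 in nph4-1 with IAA and 8.36 ± 0.038 in its controls (SD, n = 3 arrays each). Here the arrays with IAA overlapped, and the controls did not, with 8.02 to 8.06 in the double mutant and 8.32 to 8.39 in nph4-1. The mean response was -0.228 in nph4-1 arf19-1 and -0.533 in nph4-1. Their difference of 0.305 was made of a level difference of -0.02 with IAA and -0.325 without it. In these averages, on which no test was made, the genotypes stood apart with IAA for the raised probe sets and without IAA for the lowered ones.

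**Figure D4:**
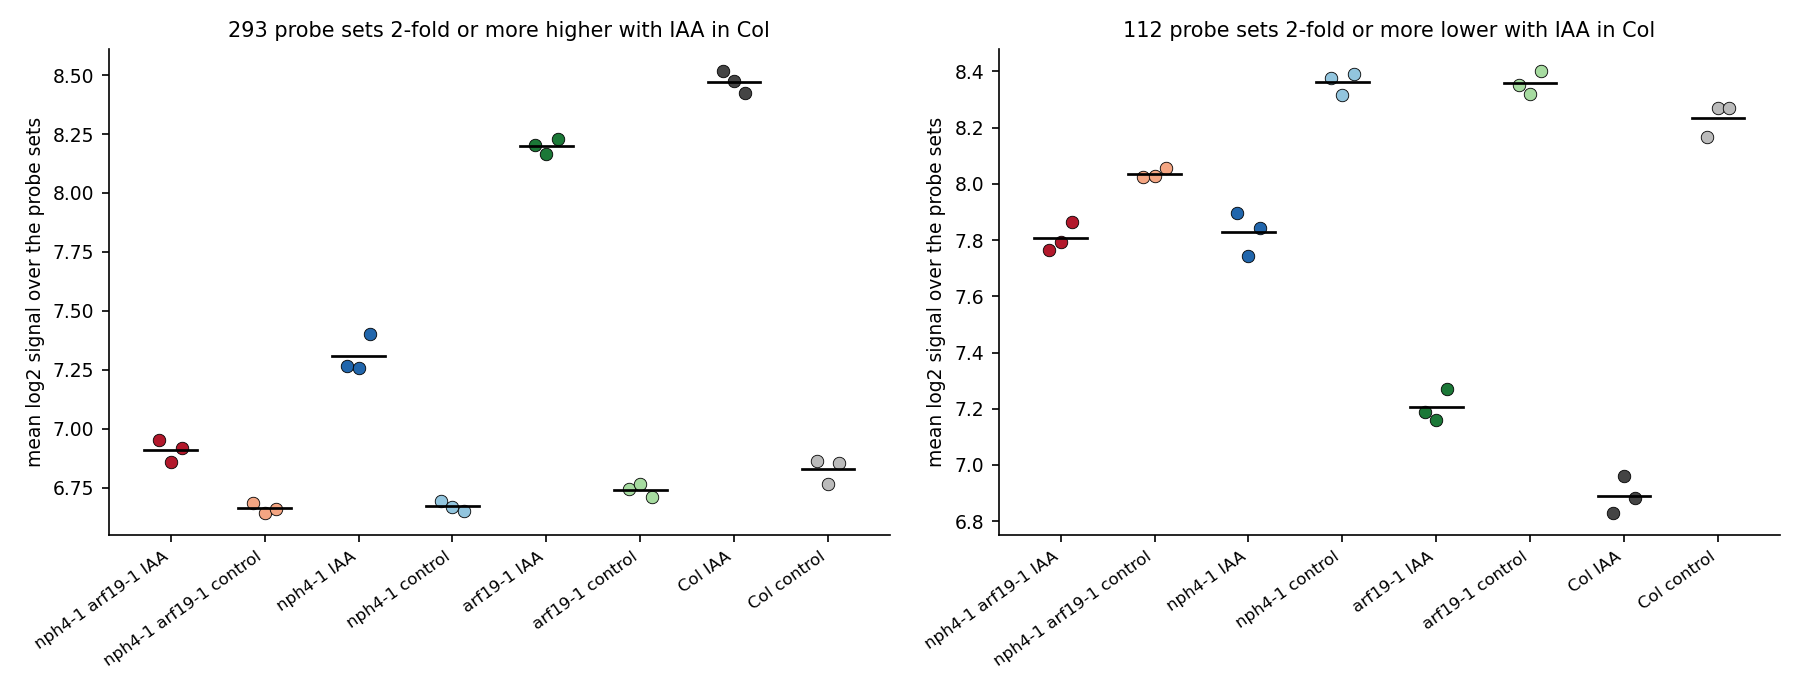
Mean log2 signal over the 293 probe sets raised (left) and the 112 lowered (right) at least 2-fold by IAA in Col, 1 point per array, with bars at the mean of 3 arrays. On the left the double mutant parts from nph4-1 with IAA (6.91 against 7.31), and on the right in the controls (8.04 against 8.36). Col chose the sets, so its own separation is given by that choice.

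ARF19 loss could also be read with ARF7 present, as the IAA response of arf19-1 minus that of Col on 12 other arrays. That difference was called for 41 probe sets (0.26%), 32 lower (0.203%) and 9 higher (0.0571%). Of these, 9 were also called lower and 2 also called higher for the response difference, which is 23.4% of the 47 calls and 26.8% of the 41, and none had opposite signs. AT3G51410, AT4G17350 and PUCHI were the genes called lower in both, with arf19-1 minus Col values of -1.34, -1.26 and -1.15.

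The difference between both comparisons was itself called for 28 probe sets (0.178%), 13 lower (0.0825%) and 15 higher (0.0952%), of which 18 were also called for the response difference. GH3.3 had the lowest value of the named genes. Its IAA response was 5.78 in arf19-1 and 5.63 in Col, so that the difference with ARF7 present was 0.15 (adjusted p = 1), and the difference between the comparisons was -2.11 ± 0.35 (adjusted p = 0.01). Its arrays with IAA read 13.22, 13.14 and 13.07 in arf19-1 and 13.14, 13.10 and 12.80 in Col, close to the highest signal on any array, 13.5. The level of equal responses in the double mutant (13.94) also lies above 13.5, while the double mutant with IAA read 11.88 to 12.08. Whether signals are limited at 13.5, and what that would mean for the value of -2.11, was not tested.

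AT4G38410 behaved likewise, with a difference of 0.46 with ARF7 present and -1.82 ± 0.32 between the comparisons (adjusted p = 0.014). AT1G23340 had -1.28 ± 0.23 (adjusted p = 0.017), while neither its response difference of -0.57 nor its arf19-1 minus Col difference of 0.72 was called. LBD16 had a difference of -0.02 with ARF7 present, but the difference between its comparisons, -1.25, was not called (adjusted p = 0.061). IAA29, at -0.64 with ARF7 present, was not called for it either (adjusted p = 0.92).

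In the other direction, AT4G25250 (1.64 ± 0.24, adjusted p = 0.0045), EXPB1 (1.44 ± 0.24, adjusted p = 0.011) and AT2G18980 (1.20 ± 0.20, adjusted p = 0.011) were called. For AT4G25250 all arrays with IAA of arf19-1, Col and nph4-1 were at the floor, so their falls are bounds and the value rests on that floor. For EXPB1 these arrays were at or near the floor, 5.64 to 5.76. AT2G23060 (1.39 ± 0.09, adjusted p = 2.1e-08) was at the floor on all 12 nph4-1 and double-mutant arrays, as were 4 other of the 15 higher calls. AT4G37900 (0.91 ± 0.16, adjusted p = 0.016) was at most 5.77 on those arrays. For AT2G23060 the value restates the difference between arf19-1 and Col, whose arrays with IAA read 5.64, 5.64 and 5.73 in arf19-1 and 7.13, 7.01 and 7.04 in Col.

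**Figure D5:**
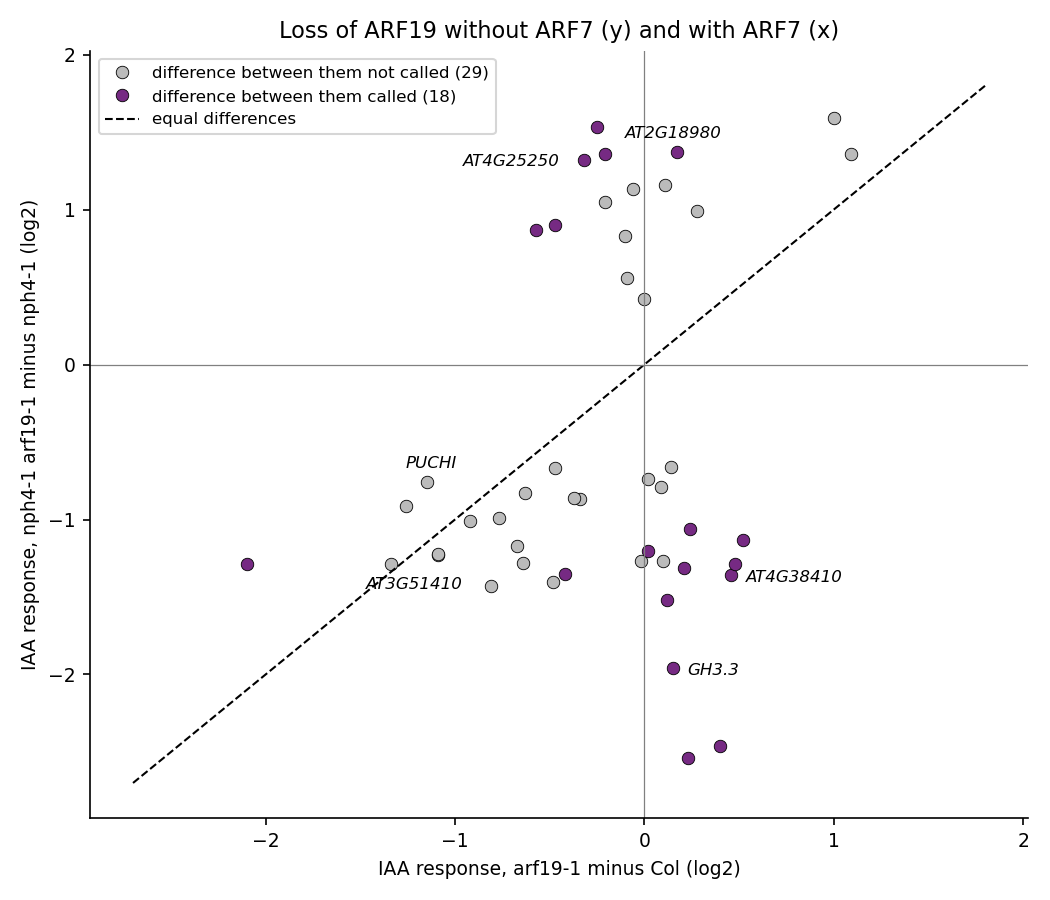
Difference in IAA response on loss of ARF19 without ARF7 (nph4-1 arf19-1 minus nph4-1, y axis) and with ARF7 (arf19-1 minus Col, x axis) for the 47 called probe sets, in log2. The dashed line marks equal differences. GH3.3 and AT4G38410 lie well below it, AT3G51410 and PUCHI near it, and AT2G18980 and AT4G25250 above it.

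Not all of the nph4-1 response was called as changed. Of the 397 probe sets that responded in nph4-1 (2.52%), 352 had no called response difference, which does not show that they responded alike. In the double mutant 66 responded (0.419%), 52 of them also in nph4-1, 41 higher and 11 lower in both, and 13 of the 52 had a called response difference. The 397 became 258 without nph4-1 control replicate 3, and the 66 became 33 to 43 without any one of the 6 double-mutant arrays. In fits of only the arrays compared the counts were 18 for nph4-1 arf19-1 and 116 for nph4-1, and with array quality weights 218 and 838. A few genes, chosen after their values were seen, had responses of like size. STZ, a zinc-finger transcriptional repressor induced by stress, rose in both, with a response of 1.52 ± 0.32 in nph4-1 arf19-1 and 1.44 ± 0.32 in nph4-1. The response difference was 0.07, with a 95% interval of -0.88 to 1.02.

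AT1G59740, a transporter gene of the NRT1/PTR family, had 1.04 ± 0.22 in both genotypes, with an interval of -0.65 to 0.63 for the difference. AR781 had 1.11 ± 0.18 in nph4-1 arf19-1 and 0.81 ± 0.18 in nph4-1, with an interval of -0.23 to 0.84. AT5G04120 fell in both, with responses of -1.61 ± 0.22 in nph4-1 arf19-1 and -1.35 ± 0.22 in nph4-1, the last a bound since its 3 nph4-1 arrays with IAA were at the floor. HAT2, an auxin-induced HD-ZIP class II factor, was the only member of its list found by name among those tested and is not among these genes. It rose less in nph4-1 arf19-1 (0.56) than in nph4-1 (1.11), but its response difference of -0.55 ± 0.16 was not called (adjusted p = 0.42). The intervals of STZ, AT1G59740 and AR781 are wide. Differences of about the size seen for PUCHI lie inside those of STZ and AR781 in at least 1 direction.

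Of the wall-related lists, the class III peroxidases and the expansins had calls and the others had none. The called pectin genes AT2G47550 and AT4G25250 lie outside these lists. Among 40 class III peroxidases, 1 was called lower (AT5G39580) and 1 higher (AT2G18980), with a list median of -0.04, against 0.203% lower and 0.0952% higher of all probe sets. Among 12 expansins, which loosen walls, 1 was called higher (EXPB1) and none lower, with a list median of -0.11, beside the same shares of all probe sets. None of 9 XTH enzymes, which cut and rejoin xyloglucan, was called for the response difference, but 4 were called lower in nph4-1 arf19-1 with IAA and 5 lower without it, against 2.18% and 1.57% of all probe sets. The XTH genes with the largest response differences were XTH19 at -0.53 and XTH21 at 0.39, neither called. XTH21 was called in the fit with array quality weights and without nph4-1 control replicate 1 (adjusted p = 0.0164 and 0.0199).

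No member was called for the response difference among 3 pectin methylesterases and inhibitors found by symbol (ATPMEPCRB -0.37, PMEPCRF 0.35), 8 GH9 glucanases (GH9B13 -0.20, GH9C2 -0.19) and 18 TBL wall acetylation genes (TBL41 -0.27, TBL26 0.19). AT2G47550 and AT4G25250 are not among the 3, since the table gives them no symbol. The same held for 10 beta-glucosidases (BGLU46 -0.34, BGLU15 0.27) and 8 SWEET sugar transporters (SWEET1 -0.25, SWEET13 0.08). It also held for 34 UGT glycosyltransferases (UGT71C1 0.52, UGT72E1 0.45), of which 2 rose in nph4-1 and none in nph4-1 arf19-1. Over all probe sets 1.72% rose in nph4-1 and 0.336% in nph4-1 arf19-1.

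Of 12 glutathione transferases none was called, although GSTU25 and GSTU22 rose in nph4-1 and had response differences of -0.72 and -0.68. Another 2 of the 12 fell in nph4-1, beside 1.72% raised and 0.8% lowered of all probe sets. Among 13 rapid stress-responsive genes none was called, and the list median was 0.01 (WRKY53 -0.64, CML38 0.39). Of the 13, 2 rose in nph4-1 arf19-1 and 2 in nph4-1, beside 0.336% and 1.72% of all probe sets. None of 2 ethylene genes (EIN3 0.22, RTE1 -0.18) and none of 2 cytokinin genes (ARR15 -0.04, RR16 0.00) was called. The only members of the auxin transport and auxin synthesis lists found by name had response differences of -0.06 and -0.08, and neither was called. The SAUR, ARF, gibberellin, brassinosteroid, cell cycle, pectate lyase and cytosolic ribosomal lists matched no tested probe set with 1 gene by name. Genes of these lists that are named by locus only could have been missed, and the lists were not analysed here.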

How the data were processed

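RNA of whole seedlings was hybridised to oligonucleotide arrays, 1 array per sample. The deposited values are log2 signal per probe set, which the authors limited to a floor of 50 in linear units (5.64), as the values show; the summary method and scaling are not given in the sources used here. Of 22810 probe sets, 64 controls and 6989 at the floor on all 24 arrays were left out, and 15757 were tested. The platform annotation gives a single gene for 13513 probe sets and several genes for 503, and leaves 8794 unlisted; 13436 of the single genes were found in the RefSeq gene table (TAIR10.1), used for names only, and 8616 of those tested had 1 gene. Among values above the floor on both arrays, no pair of the 24 arrays shared over 0.0213%. All columns used matched a sample; 0 were left over.

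The 8 group means were fitted to 24 arrays with limma 3.58.1 in R 4.3.3 (eBayes with trend and robust, 16 residual degrees of freedom). Tests are two-sided, with Benjamini-Hochberg adjustment over all probe sets of a contrast and a threshold of 0.05, and errors are standard errors of the fit. Groups at the floor show no spread, which lowers their pooled error. The fit was tested on simulated data. Named genes were the called probe sets with 1 gene, up to 12 per direction, up to 4 called or 2 uncalled members of each list with at least 2 tested, and up to 5 per direction of the difference between both ARF19 comparisons. Members and lists were chosen with earlier results of these data known. Members were found by name, or by locus as for the peroxidases, so genes named by locus only can be missing from a list. Of 29 lists, 7 matched no tested member and 3 matched 1. After the values were available, the peroxidase list was redrawn by locus and a stomatal gene was taken out of the lateral root list. Replicate numbers were compared by the correlation of deviations from group means. In the 4 comparisons of 2 groups that share a genotype or a treatment, all 12 same-number pairs were over 0.1 (0.171 to 0.501), so the numbers pair the arrays there by the data, while the labels do not say what a number shares. Across genotype and treatment together, 4 of 6 pairs were over it. The alternatives were fits of only the arrays compared, 2 normalizations, 3 filters, plain eBayes, a replicate block, array weights, omission of each array, 2 stricter thresholds and selection on arf19-1 or nph4-1 responses. A planned search of promoters for auxin response elements was not run, as no sequence was used here. Per the labels, the tables of Col control 2 and 3 replace earlier ones.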

Additional observations from a re-analysis of the deposited data

Results flagged for a closer look

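The IAA response differed between nph4-1 arf19-1 and nph4-1 for 47 probe sets, between arf19-1 and Col for 41, and the first of these differences differed from the second for 28, each by the limma test of the difference itself. In the first comparison the named genes with a lower response were GH3.3 (-1.96), AT4G38410 (-1.36), AT3G51410 (-1.29), IAA29 (-1.28), LBD16 (-1.27), AT3G19200 (-1.27), AT5G39580 (-1.17), AT4G17350 (-0.91), AT2G47550 (-0.87), AT1G33260 (-0.86), CP1 (-0.83), PUCHI (-0.76) and AT3G55720 (-0.66). Those with a higher one were AT2G18980 (1.37), AT4G25250 (1.32), AT4G11210 (1.16), EXPB1 (0.87) and AT1G76240 (0.83). Between the comparisons, the named values were -2.11 for GH3.3, -1.82 for AT4G38410 and -1.28 for AT1G23340, and 1.64 for AT4G25250, 1.44 for EXPB1, 1.39 for AT2G23060, 1.20 for AT2G18980 and 0.91 for AT4G37900. What these differences reflect was not tested.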

How the results depend on the processing

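No result reversed its direction under any alternative that was run. The 47 response differences became 45 in a fit of the 12 arrays alone, 47 after quantile normalization, 47 with equal medians, 46, 42 and 37 under other filters and 47 with plain eBayes. Array quality weights gave 123 (all 47 among them), an adjusted p under 0.01 gave 30 and a 2-fold minimum 31. In a fit of only the arrays compared, the calls for the nph4-1 response were 116, for the nph4-1 arf19-1 response 18, for the level difference with IAA 102 and for arf19-1 minus Col 22. Array weights gave 838 and 218 for those responses, 1212 and 2084 for the level differences with and without IAA, 43 for the difference between both ARF19 comparisons and 97 among probe sets called in Col, where 44 were called. With an adjusted p under 0.01 the counts were 260, 28, 239, 174, 27, 8 and 29 for the nph4-1 response, the nph4-1 arf19-1 response, the level with IAA, the level without IAA, arf19-1 minus Col, the difference between comparisons and the set called in Col. With a 2-fold minimum they were 101, 18, 84, 55, 19 and 29, the difference between comparisons keeping its count within 1.5 times. Leaving out 1 array at a time gave 37 to 55 response differences, 258 to 445 and 33 to 82 calls for the nph4-1 and nph4-1 arf19-1 responses, 250 to 440 and 181 to 441 for the levels with and without IAA (the lowest without nph4-1 arf19-1 IAA replicate 2 and control replicate 3), 32 to 46 for arf19-1 minus Col, 20 to 36 between comparisons and 35 to 50 in the set called in Col. The mean response difference over the probe sets raised 2-fold in Col stayed between -0.462 and -0.343. With the replicate block 49 response differences were called, 46 of them shared. The block moved no count by over 1.5 times and changed no call of a named gene. Differences at the floor have only a bound, and the 3 arrays per group limit how small a difference can be seen. The cause of these changes was not tested. The promoter search was not run.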
